A study of Mus musculus with 6 samples.

Results

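The circular RNAs (circRNAs) of the postsynaptic scaffold genes Dlg1, Dlg2, Dlg3, Dlgap1, Dlgap2, Shank2, Shank3, Magi1, Magi2 and Magi3 were examined in mouse cortex. Members were all circRNAs of the deposited table whose listed host gene, given there as a mouse Ensembl identifier, is 1 of these 10 genes. The table lists 11171 circRNAs, of which 72 belonged to 9 of the 10 genes. Dlg3, on the X chromosome, had no circRNA listed. Magi2 had 19 circles, Dlgap1 18, Dlg1 12, Dlg2 6, Shank3 5, Dlgap2 4, Magi1 3, Magi3 3 and Shank2 2.

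The libraries came from the cortex of male C57BL/6 mice (C57BL/6J in the study's methods) aged 6 weeks, 3 Control and 3 TLE (temporal lobe epilepsy), with 1 library per mouse. TLE mice had received scopolamine methyl bromide and then pilocarpine, a muscarinic agonist that induces Status Epilepticus (SE), and then diazepam to end the seizures, where Control mice had received saline at each step. Effects of the 3 drugs and of the seizures therefore cannot be told apart. TLE cortex was taken 24 h after SE and the labels name no engineered allele.

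Scaffold proteins of the postsynaptic density hold receptors, adhesion molecules and signalling enzymes in place beneath the synaptic membrane of excitatory synapses. The DLG proteins are membrane-associated guanylate kinases with PDZ domains that bind receptor tails, the DLGAP proteins bind the guanylate kinase domain of the DLG proteins, and the SHANK proteins bind the DLGAP proteins and link the layer to Homer and the actin cytoskeleton. The MAGI proteins are inverted membrane-associated guanylate kinases that act at synapses and at epithelial and endothelial junctions. A circRNA arises by back-splicing, in which a donor splice site is ligated to an acceptor that lies upstream of it in the gene, and neuronal genes with long introns are known for many such circles.

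Each circle was measured by the reads across its back-spliced junction, in SRPBM, a signal of spliced reads that the authors scaled to the mapped reads of the library. A circle has 1 such junction whatever its length, so levels of different circles are compared here without scaling to length, and a gene's summed level is the sum over its circles. In cortex as a whole, fewer cells of a type and less RNA per cell cannot be told apart. The 6 libraries held between 32504 (TLE 1) and 56516 (TLE 3) junction reads, where 1 read was worth 8.55 to 10.3 SRPBM. The smallest value listed was 2 junction reads, and a 0 may also be a junction that the authors' filters removed, so it is only called listed at 0. Of hosts that mark cell types, Syt1 had 8 circles and Rbfox3 3, while Snap25, Slc17a7, Gad1 and Gad2 had none, and the summed neuronal level was 137 to 307 SRPBM in Control and 145 to 289 SRPBM in TLE. Syt1 gave 138 reads of this sum and Rbfox3 6. Rbfox3 alone measured 0, 18.6 and 34.5 SRPBM in Control and was listed at 0 in every TLE library. Slc1a2 alone of 4 astrocyte hosts was listed (2 circles, at most 34.6 SRPBM in a library), and 4 oligodendrocyte, 4 microglial and 4 endothelial marker genes had no circle in any library. The table holds no linear RNA, so these hosts are a weak check of the cell makeup.

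The junctions of the dominant circles of the 5 best read genes are printed here, with circles that share an end, hold a single exon or have a counterpart in a paralogue, 5′ to 3′ on the strand of the host, from the GENCODE transcripts of mouse build GRCm38. Lower case gives the last 15 bases of the last exon and capitals the first 15 bases of the first exon, so the change of case is the back-splice itself. The first 3 are Dlgap1 junctions, and the capitals show that the exon 10-12 and exon 10-11 circles start at 1 shared acceptor, while the lower case shows that the first and the third end at 1 shared donor.
Dlgap1 exons 10-12: acctcccagaagacaTGTCATCTTGCATTA
Dlgap1 exons 10-11: agaagaagagaagtgTGTCATCTTGCATTA
Dlgap1, acceptor inside exon 10: acctcccagaagacaCCCAGAGTAGCACAG
Dlg1 exons 12-14: gatcgcatcatatcgGTGAACAGTGTGTGT
Dlg1 exons 5-14: gatcgcatcatatcgAAATACCGGTATCAG
Magi2 exons 12-15: ctggagccaccataaAACAAGTGCCACCCA
Magi2 exons 12-19: aacggcaggatgaggAACAAGTGCCACCCA
Magi2 exon 9: tcatccatcgaggagGTGATGTCATTGTCT
Shank3 exons 19-21: cattgcagcagctcgAGAAGTTGGATGAGA
Shank3 exon 21: cattgcagcagctcgGGGAGGATGAGAAGC
Shank2 exons 19-22: caacctcgctccaagATAAACCGGAAGAGA
Dlgap1 exons 8-9: tccagagcagcaccgGATCTCCAATGAACA
Dlgap2 exons 8-9: tcaggtcaacagcagCCAGAGCTACCTACA
The last 2 are the circles of 2 related genes that are bounded by matching exons, the 1 such pair found between Dlgap1 and Dlgap2.

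Together the 72 circles held 1770 of the 254199 junction reads of the 6 libraries (0.696%). Dlgap1 held 56.5% of the scaffold reads, Magi2 17.7%, Dlg1 13.0%, Shank3 5.59% and Dlgap2 3.33%. The remaining 4 genes were near the lower limit of the table, with 25 reads over the 6 libraries for Magi1, 23 for Dlg2, 12 for Magi3 and 9 for Shank2. By mean summed level, Dlgap1 ranked 24th among all host genes, Magi2 137th and Dlg1 197th. Genes with more reads mostly had more circles, though not in strict order: Magi2 had the most circles with 313 reads, and Dlgap1 had 1000 reads in 1 circle fewer.

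Most scaffold circles were rare, as were most circRNAs in the table. Of the 72, 32 (44.4%) were listed above 0 in exactly 1 library, near the 45.4% of all circRNAs in the table. At most 10 reads over the 6 libraries were held by 51 (70.8%), near the 68% of all circRNAs. In all 6 libraries 12 (16.7%) were above 0, beside 13.9% of all circRNAs. These were 4 circles each of Dlgap1 and Magi2, 2 of Dlg1 and 1 each of Shank3 and Dlgap2. The Control libraries listed 31, 26 and 28 scaffold circles and the TLE libraries 22, 36 and 38, so the TLE libraries spread further to both sides. After the reads of every library were thinned to 32504, the counts were 27.8, 24.5 and 23.6 in Control and 22.0, 29.8 and 24.9 in TLE, which overlapped.

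**Figure D1:**
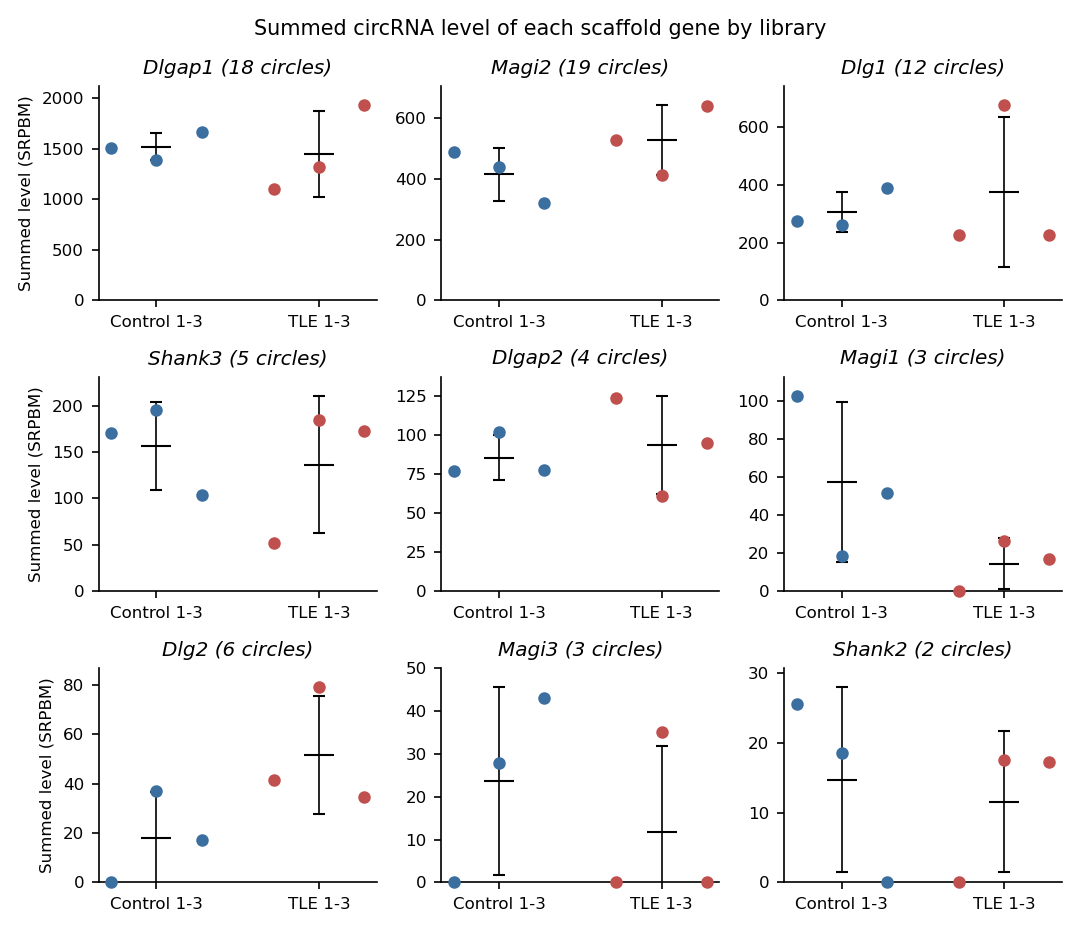
Summed circRNA level of the 9 scaffold genes with circles, in SRPBM on linear axes that start at 0. Each point is 1 library in replicate order (blue Control, red TLE), and the black line and bar give the mean and SD of 3 libraries. The TLE points of Dlgap1 lie from 1105 to 1930 SRPBM around Control points of 1395 to 1662, and in no gene are the groups apart.

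Dlgap1 encodes the scaffold that ties the DLG proteins to the SHANK layer. Its summed level was 1504, 1395 and 1662 SRPBM in Control and 1105, 1324 and 1930 SRPBM in TLE. The lowest and the highest of the 6 libraries were both TLE libraries, so the groups overlapped. The log2 fold change, TLE over Control, was -0.10 (95% confidence interval -0.58 to 0.38; limma on log2(SRPBM + 17.1), adjusted p = 0.954), and these bounds lie inside the threshold of 1.5 in either direction.

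The dominant Dlgap1 circle joined exon 12 back to exon 10 of 15 (mmu_circ_0003788, chr17:70761075-70787209, plus strand), 885 nucleotides of coding exon by the annotation. It measured 906, 865 and 982 SRPBM in Control and 713, 763 and 1237 SRPBM in TLE, and ranked 31st of all 11171 circRNAs by mean level. TLE 1 and TLE 2 lay below every Control library and TLE 3 above. TLE over Control, its log2 fold change was -0.06 (95% confidence interval -0.56 to 0.43, limma).

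The second circle joined exon 11 to the same exon 10 (mmu_circ_0003787, chr17:70761075-70766089), 463 nucleotides in 2 exons. It measured 393, 437 and 551 SRPBM in Control and 269, 342 and 502 SRPBM in TLE, which again overlapped. These 2 circles carried 892 reads, 89.2% of the Dlgap1 reads and 50.4% of all scaffold reads. The ratio of the longer to the shorter was 2.30, 1.98 and 1.78 in Control and 2.65, 2.23 and 2.47 in TLE. The lowest TLE ratio lay below the highest Control ratio.

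The remaining 16 Dlgap1 circles shared 108 reads. Circles that started at the leading acceptor, at the start of exon 10, took 89.4% of the Dlgap1 reads. An acceptor 84 bases further into this exon, the start of an exon in another annotated transcript, gave 2 circles with 24 reads. Of those, the circle that ended at exon 12 (mmu_circ_0003791) was listed in every library, at 18.6 to 34.5 SRPBM in Control and 26.0 to 43.8 SRPBM in TLE. Exon 12 alone closed into a circle of 422 nucleotides (mmu_circ_0003792) with 2 reads in Control 2, 7 in TLE 2 and 2 in TLE 3, and its log2 fold change of 0.72 (limma, unadjusted p = 0.282) was the third highest of the scaffold circles tested. It rests on TLE 2, without which it was 0.15. In 6 Dlgap1 circles at least 1 end lay off the exon boundaries of any single annotated transcript, and none of these had more than 5 reads.

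**Figure D2:**
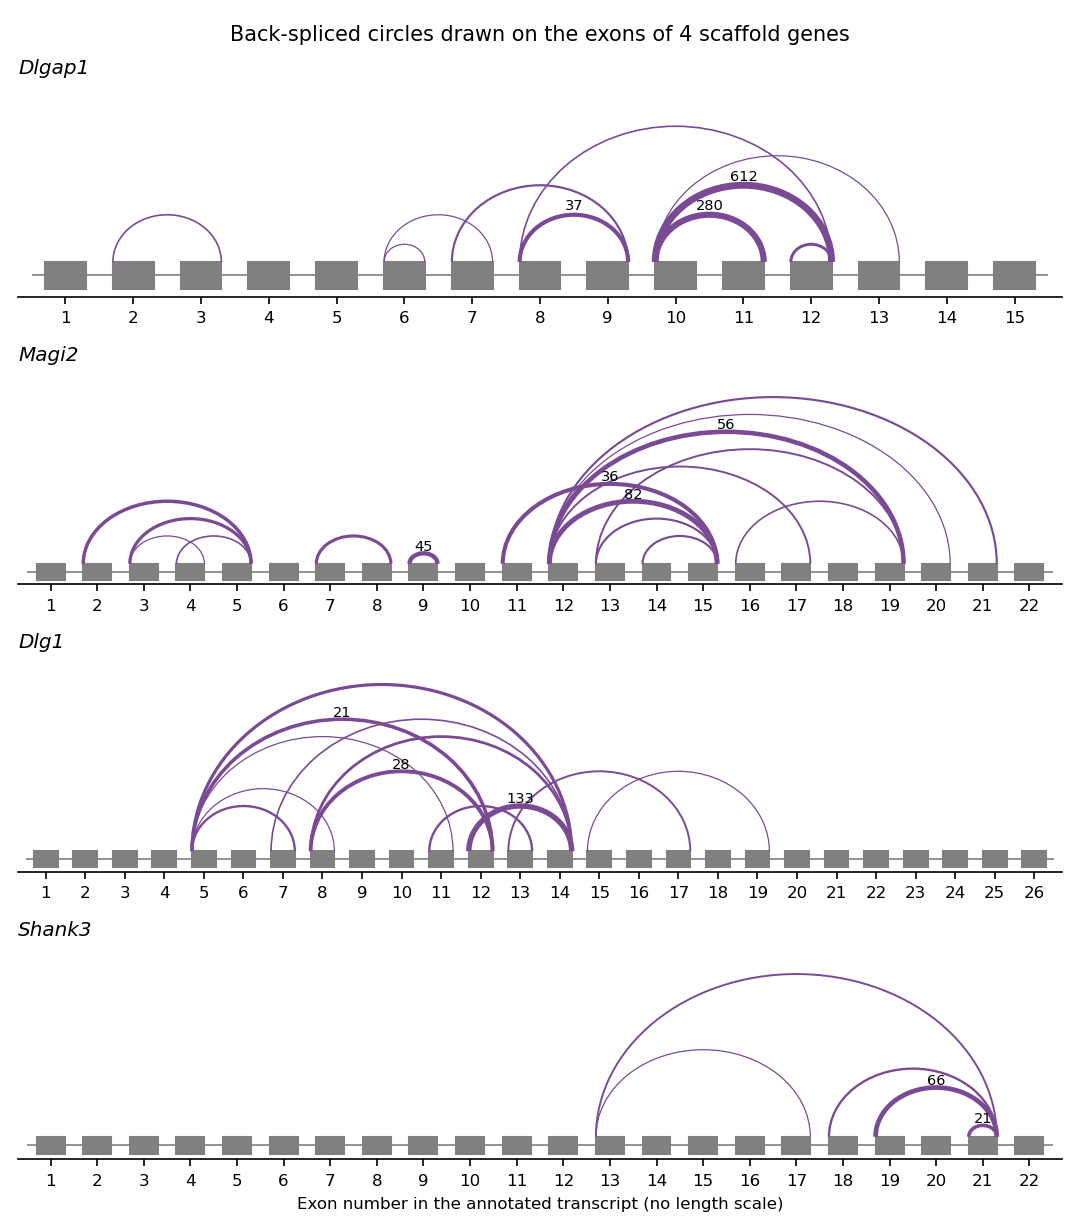
Circles of Dlgap1, Magi2, Dlg1 and Shank3 drawn on numbered exons of 1 annotated transcript each (15, 22, 26 and 22 exons; equal spacing, no length scale). Each arc joins the first and last exon of a circle, its width grows with the log of the junction reads over the 6 libraries, and numbers give reads of circles with at least 20. Drawn are 10 of 18 Dlgap1, 16 of 19 Magi2, 12 of 12 Dlg1 and 5 of 5 Shank3 circles, the others having ends outside this transcript. Arcs crowd on a few shared ends, such as exon 10 of Dlgap1, exon 12 of Magi2, exons 5 and 14 of Dlg1 and exon 21 of Shank3.

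Dlgap2, the paralogue of Dlgap1, had 4 circles and 59 reads. Its summed level was 76.9, 102 and 77.5 SRPBM in Control and 124, 61.4 and 95.2 SRPBM in TLE. The groups overlapped, with a log2 fold change of 0.08 (95% confidence interval -0.84 to 0.99, limma). Beneath this sum, its 2 leading circles were the only scaffold circles among the 23 tested whose groups did not overlap, one lower and the other higher in every TLE library. Over all 4271 circRNAs tested, 11.1% had groups without overlap, so 2 of 23 is near the background.

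The dominant Dlgap2 circle joined exon 9 to exon 8 of 16 (mmu_circ_0009797, chr8:14773234-14778415, plus strand), 368 nucleotides. It measured 76.9, 65.1 and 60.3 SRPBM in Control and 51.6, 35.1 and 51.9 SRPBM in TLE. Every TLE library lay below every Control library, by 4 to 6 reads against 7 to 9. A log2 fold change of -0.42 (95% confidence interval -1.38 to 0.53; limma, unadjusted p = 0.360) did not pass the threshold.

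The other Dlgap2 circle (mmu_circ_0009798, chr8:14839699-14846923) had its acceptor on an exon boundary and its other end 218 bases into the untranslated part of the last exon, exon 16. Control listed it at 0, 0 and 17.2 SRPBM, and TLE at 41.3, 26.3 and 26.0 SRPBM. Every TLE library lay above every Control library, with 3 or 4 reads against at most 2. Its log2 fold change of 1.15 (95% confidence interval -0.13 to 2.43; limma, unadjusted p = 0.0758) was the second highest of the scaffold circles tested and did not pass the threshold. Within Dlgap2, the dominant circle took 80.5% ± 18.3 of the summed level in Control and 51.1% ± 8.29 in TLE (SD, n = 3 each). The shares did not overlap, and the two-sided exact permutation test gave p = 0.1, the smallest that 3 libraries against 3 allow, with an adjusted p of 0.5 over 5 genes. The shares rest on 7 to 12 reads a library.

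The exon 8-9 circle of Dlgap2 had a counterpart in Dlgap1. Exons 8 and 9 of the 2 genes are each other's best match, with 76.7% identity over 90 aligned bases of the first exon and 71.6% over 162 aligned bases of the last. The Dlgap1 circle of these exons (mmu_circ_0003784, 419 nucleotides) had 37 reads over the 6 libraries, and the Dlgap2 circle 38. At this pair of exons the 2 genes were read at nearly the same level, although Dlgap1 as a whole had 1000 reads and Dlgap2 59. The Dlgap1 circle measured 76.9, 37.2 and 51.7 SRPBM in Control and 62.0, 70.1 and 34.6 SRPBM in TLE, so it did not share the separation of groups seen in Dlgap2.

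Shank3, a scaffold of the deeper layer that binds Homer and cortactin, had 5 circles and 99 reads. Its summed level was 171, 195 and 103 SRPBM in Control and 51.6, 184 and 173 SRPBM in TLE. TLE 1 was the lowest of the 6 and the other two TLE libraries lay within the Control range. The log2 fold change was -0.29 (95% confidence interval -1.21 to 0.63, limma) and became 0.21 without TLE replicate 1.

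The dominant Shank3 circle joined exon 21 to exon 19 of 22 (mmu_circ_0003050, chr15:89543100-89549882, plus strand), 2473 nucleotides, most of it the long exon 21. It measured 103, 167 and 60.3 SRPBM in Control and 20.7, 140 and 95.2 SRPBM in TLE, which overlapped, and its log2 fold change of -0.45 (limma, unadjusted p = 0.392) became 0.15 without TLE replicate 1. Exon 21 alone, 2257 nucleotides, closed into the second circle (mmu_circ_0003051), at 25.8 to 51.3 SRPBM in Control and 0 to 51.9 SRPBM in TLE. Of the 5 Shank3 circles, 4 ended at the donor of exon 21, and they held 97 of the 99 reads.

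Shank2 had 2 circles and 9 reads. Its dominant circle joined exon 22 to exon 19 of 23 (mmu_circ_0009160, chr7:144405330-144411868, plus strand), 2671 nucleotides, and was listed at 2 reads in Control 2, TLE 2 and TLE 3. Its log2 fold change was 0.32 (limma, unadjusted p = 0.560), between 0.14 and 0.68 with 1 library left out. The exons that bound it are the best matches of those that bound the dominant Shank3 circle, with 83.3% identity over 42 aligned bases of the first exon and 73.3% over 191 of the last. Gene pairs within a family were compared only among the 9 scaffold genes with circles, on 1 transcript per gene. Dlgap1 with Dlgap2 and Shank2 with Shank3 each had 1 pair of circles bounded by matching exons. Dlg1 with Dlg2 and the pairs among Magi1, Magi2 and Magi3 had none. A match required end exons that were each other's best match over at least 40 aligned bases. The Magi pairs had 12 to 14 such exons. Exon 12 of Magi2, 42 nucleotides long, aligned over 15 bases in Magi1 and 16 in Magi3, so circles that start there could not be matched. The other Shank2 circle was listed with 3 reads in Control 1 alone.

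Dlg1, which encodes SAP97, a scaffold that takes part in AMPA receptor trafficking, had 12 circles. The summed level was 273, 260 and 388 SRPBM in Control and 227, 675 and 225 SRPBM in TLE. TLE 2 stood above all other libraries and the other two TLE libraries below all Control libraries, so the groups overlapped. The log2 fold change was 0.11 (95% confidence interval -0.65 to 0.87, limma), and it became -0.39 without TLE replicate 2.

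The dominant Dlg1 circle joined exon 14 to exon 12 of 26 (mmu_circ_0003228, chr16:31796866-31812824, plus strand), 423 nucleotides. It had 20, 21 and 26 reads in Control and 16, 50 and 0 in TLE, that is 171, 195 and 224 SRPBM against 165, 438 and 0 SRPBM. TLE 2 was the highest library and TLE 3, the library with the most junction reads, listed this circle at 0. In TLE 3 the 5 other Dlg1 circles listed there held 26 reads. A circle with the same donor, from exon 5 to exon 14 (mmu_circ_0003223), held 8 of them. Another with this donor, from exon 8 (mmu_circ_0003226), held 2. Circles that end at exon 12 instead held 8 (from exon 8, mmu_circ_0003225) and 6 (from exon 5, mmu_circ_0003222). Those with 8 or 6 reads each had their most reads in this deepest library, so the rise was not particular to the exon 14 donor. The dominant circle's log2 fold change of -0.92 (95% confidence interval -2.52 to 0.68; limma, unadjusted p = 0.242) was the lowest of the scaffold circles tested. It became 0.44 without TLE replicate 3, and without TLE replicate 2 it was -1.93 (limma, unadjusted p = 0.0141, adjusted p = 0.882), past the threshold. A listed 0 where every other library held at least 16 reads occurred for 1 to 6 circRNAs in each library (3 in TLE 3), a limit of reads set after this circle was seen. Those with such reads in the other libraries numbered 221 to 263 (221 for TLE 3).

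The exon 14 donor of Dlg1 served 4 circles with 69.1% of its reads, and the exon 5 acceptor 5 circles with 19.6%. The circle from exon 8 to exon 14 (mmu_circ_0003226) was listed at 5 and 2 reads in Control 1 and 2 and at 2 reads in TLE 3, and its log2 fold change of -0.62 (limma, unadjusted p = 0.318) was the second lowest. It was -0.19 without Control replicate 1 and -1.10 without Control replicate 3. Dlg1 without its dominant circle summed to 103, 65.1 and 164 SRPBM in Control and 62.0, 237 and 225 SRPBM in TLE, so TLE 3 was then among the higher libraries.

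Dlg2, which encodes PSD-93, had 6 circles and 23 reads, none of them above 0 in 3 libraries. Of these, 3 ended at the donor of exon 13. The circle with the highest mean, exons 10 to 13 of 23 (mmu_circ_0009633, chr7:91997166-92126642, plus strand), had 4 reads in TLE 1 alone. Summed, Dlg2 was listed at 0, 37.2 and 17.2 SRPBM in Control and 41.3, 78.9 and 34.6 SRPBM in TLE. The groups overlapped by 1 library each, and the log2 fold change of 1.06 (95% confidence interval -0.28 to 2.40; limma, unadjusted p = 0.113) did not pass the threshold, and it was 0.62 without Control replicate 1.

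Inside Dlg2 the table also lists 5 circRNAs for which it names no host gene, and these are outside the 72. One of them (mmu_circ_0009631, chr7:91626329-91626813, plus strand), which overlaps no annotated exon, held 128, 0 and 146 SRPBM in Control and was listed at 0 in all 3 TLE libraries. Its 32 reads, from 2 libraries (15 and 17), exceed the 23 of all Dlg2 circles with a listed host. A Control library also listed it at 0, so the groups overlapped. Magi2 and Dlgap2 each held 1 such circRNA, with 15 and 3 reads.

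Magi2, also called S-SCAM, binds both adhesion molecules and receptors and acts at excitatory and inhibitory synapses. Its summed level was 487, 437 and 319 SRPBM in Control and 527, 412 and 640 SRPBM in TLE, which overlapped. For the sum, the log2 fold change was 0.33 (95% confidence interval -0.24 to 0.90, limma, adjusted p = 0.891). It was 0.16 without Control replicate 3, 0.18 without TLE replicate 3 and 0.11 with every library rescaled to the same total. Magi2 had no circle as dominant as those of the other well read genes: its leading 4 circles held 26.2%, 17.9%, 14.4% and 11.5% of its 313 reads, 70.0% together.

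The dominant Magi2 circle joined exon 15 to exon 12 of 22 (mmu_circ_0007980, chr5:20543585-20569354, plus strand), 576 nucleotides. It measured 154, 93.0 and 68.9 SRPBM in Control and 176, 96.4 and 156 SRPBM in TLE. In SRPBM, TLE 1 and TLE 3 lay above every Control library and TLE 2 among them. In reads the order differed, with 18, 10 and 8 in Control and 17, 11 and 18 in TLE. The log2 fold change was 0.41 (95% confidence interval -0.39 to 1.21, limma), with 0.18 without Control replicate 3 and 0.68 without Control replicate 1. The second circle started at the same acceptor and ran to exon 19 (mmu_circ_0007982), at 76.9, 93.0 and 34.5 SRPBM in Control and 114, 87.7 and 104 SRPBM in TLE. Of the 19 Magi2 circles, 5 started at this exon 12 acceptor and held 47.6% of the reads. Exon 9 alone formed a circle of 639 nucleotides (mmu_circ_0007978, chr5:20465576-20466214), with 2, 12 and 13 reads in Control and 8, 3 and 7 in TLE, a spread within each group wider than the distance between them.

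A Magi2 circle from the other end of the gene had the highest log2 fold change of the scaffold circles tested. It joined exon 5 to exon 2 (mmu_circ_0007973, chr5:20065552-20228451), across 162900 bases of the genome. It had 4, 0 and 0 reads in Control and 3, 6 and 6 in TLE, that is 34.2, 0 and 0 SRPBM against 31.0, 52.6 and 51.9 SRPBM. Control 1 lay above TLE 1, so the groups overlapped. On the log2 scale TLE exceeded Control by 1.32 (95% confidence interval -0.06 to 2.70; limma, unadjusted p = 0.0603, adjusted p = 0.922). Without Control replicate 1 it was 1.84 (limma, unadjusted p = 0.0180, adjusted p = 0.978), past the threshold.

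Magi1 and Magi3, the paralogues known from tight and adherens junctions as well as synapses, lie on the minus strand and had 3 circles each. Magi1 summed to 103, 18.6 and 51.7 SRPBM in Control and 0, 26.3 and 17.3 SRPBM in TLE. Control 2 lay among the TLE libraries. The log2 fold change of -1.17 (95% confidence interval -2.56 to 0.21; limma, unadjusted p = 0.0909) was the lowest of the 9 genes, and without Control replicate 2 it was -1.62 (limma, unadjusted p = 0.0377, adjusted p = 0.914), past the threshold, and without Control replicate 1 it was -0.75. Its dominant circle, exons 6 to 10 of 25 (mmu_circ_0008922, chr6:93755014-93773689), had 5, 0 and 6 reads in Control and 0, 3 and 2 in TLE, with a log2 fold change of -0.49 (limma, unadjusted p = 0.495), the third lowest. This value was -0.095 without TLE replicate 1 and -1.12 without Control replicate 2. The dominant Magi3 circle, exons 2 to 6 of 22 (mmu_circ_0006486, chr3:104080137-104105847), was listed with 3 reads in each of Control 2 and Control 3, and Magi3 as a whole had a log2 fold change of -0.53 (limma, unadjusted p = 0.445), between -1.07 and -0.16 with 1 library left out.

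**Figure D3:**
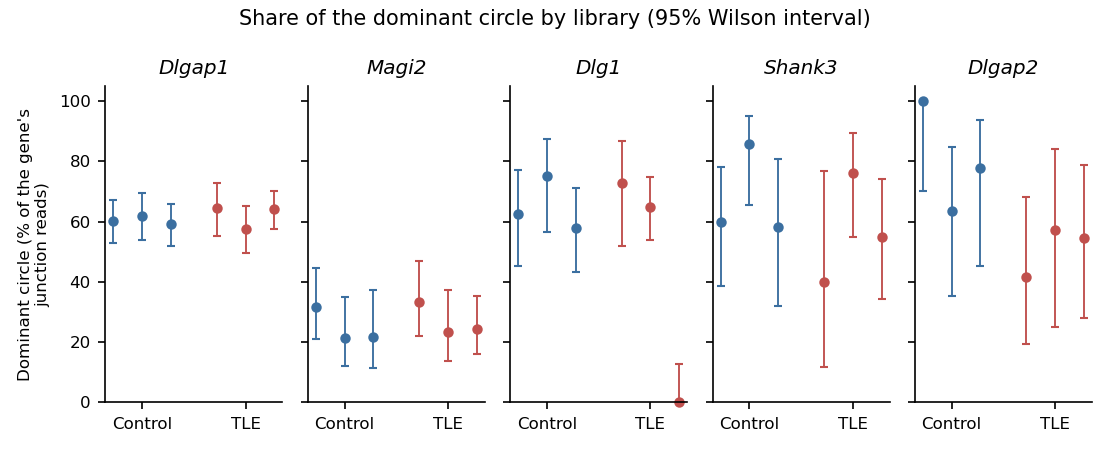
Share of the dominant circle in the junction reads of its gene, in percent, for the 5 genes with reads in every library (blue Control, red TLE, replicate order). Bars are 95% Wilson intervals, which cover counting error only. Dlgap1 stays between 57.6% and 64.5%, Magi2 between 21.3% and 33.3%, and the Dlg1 value of 0 is TLE 3.

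The share of the dominant circle compares circles within a gene and does not depend on how a library was scaled. In Dlgap1 it was 60.4% ± 1.48 in Control and 62.1% ± 3.87 in TLE (SD, n = 3 each; exact permutation test, two-sided, p = 0.6). Its spread was the smallest of the 5 genes, at 107 to 223 reads a library. In Magi2 it was 24.8% ± 5.85 and 27.0% ± 5.49 (SD, n = 3 each; exact permutation test, p = 0.5). Shank3 had 68.0% ± 15.3 and 57.1% ± 18.2 (SD, n = 3 each; exact permutation test, p = 0.4). Dlg1 had 65.1% ± 8.90 in Control and 45.9% ± 39.9 in TLE (SD, n = 3 each; exact permutation test, p = 0.8), where the wide spread is the listed 0 of TLE 3. Without that library the TLE mean exceeded the Control mean by 3.74 percentage points. Adjusted over the 5 genes, the p-values were 0.5 to 0.8.

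In the test of single circles, 23 of the 72 scaffold circles were above 0 in at least 3 libraries and entered the fit, and 49 did not. The threshold of the study's methods was used for a call, that is 1.5 on the log2 scale, up or down, and an unadjusted p under 0.05. Of the 4271 circRNAs tested, 67 (1.57%) were called. Of the 23 scaffold circles, 0 were called by limma, 0 had an unadjusted p under 0.05 (5.20% of all circRNAs tested), and 12 had a log2 fold change above 0 and 11 below. Their median was 0.01, beside 0.17 for all circRNAs tested. With every library rescaled to the same total, which moved the median of all circRNAs to 0.01, the scaffold median was -0.16, with 10 above 0 and 13 below.

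Summed per gene, 2157 host genes were tested and 41 (1.90%) were called. Of the 9 scaffold genes, 0 were called by limma and 0 had an unadjusted p under 0.05 (6.17% of all host genes tested). Of the 9 values, 4 lay above 0 and 5 below, with a median of -0.10 beside 0.20 for all host genes. The intervals of Dlgap1, Magi2, Dlg1, Dlgap2 and Shank3 lay inside 1.5 on both sides. So did that of Shank2, whose 9 reads put its values near the pseudocount, while the intervals of Dlg2, Magi1 and Magi3, with 12 to 25 reads each, reached past 1.5. Groups without overlap occurred in 12.7% of all host genes tested and in 0 of the 9.

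**Figure D4:**
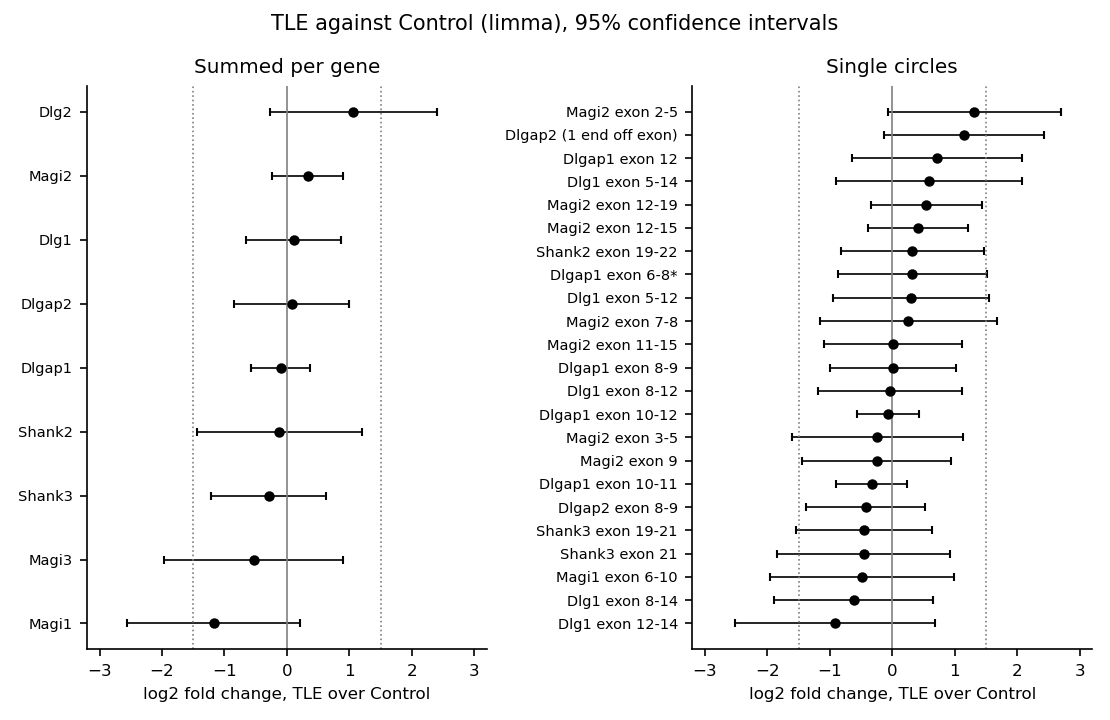
Log2 fold change of TLE over Control with its 95% confidence interval from limma, for the 9 summed genes (left) and the 23 circles tested (right, named by their exons; the asterisk marks exon numbers of another transcript). The solid line is 0 and dotted lines mark 1.5 in either direction. All 32 intervals cross 0, from Magi1 at -1.17 to Dlg2 at 1.06 on the left and from Dlg1 exons 12-14 at -0.92 to Magi2 exons 2-5 at 1.32 on the right.

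As a share of all junction reads, scaffold circles held 0.751%, 0.753% and 0.739% of the Control libraries and 0.618%, 0.688% and 0.641% of the TLE libraries. Every TLE library lay below every Control library, and as a sum over chosen genes this is given with no test. Dlgap1 held 0.428%, 0.421% and 0.462% in Control and 0.329%, 0.324% and 0.395% in TLE, which likewise did not overlap. With libraries rescaled to the same total, groups without overlap occurred in 10.2% of all host genes tested and in 1 of the 9 scaffold genes, and in 10% of all circRNAs tested and 4 of the 23 scaffold circles. For the genes this is near the background. Without its 2 leading circles the scaffold share was 0.382%, 0.360% and 0.313% in Control and 0.326%, 0.418% and 0.285% in TLE, which overlapped. On this scale the 2 leading Dlgap1 circles and the Dlgap1 sum lay lower in every TLE library, whereas on the deposited SRPBM scale the groups overlapped. With every library rescaled to the same total, the Dlgap1 sum had a log2 fold change of -0.33 (limma, unadjusted p = 0.0257, adjusted p = 0.852), short of the threshold, and it was the 1 scaffold gene of 9 with an unadjusted p under 0.05, as had 117 of all 2157 host genes on this scale. The total of the table was 330961 to 360023 SRPBM in Control and 335753 to 489032 SRPBM in TLE. Its part in the result was not tested.

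**Figure D5:**
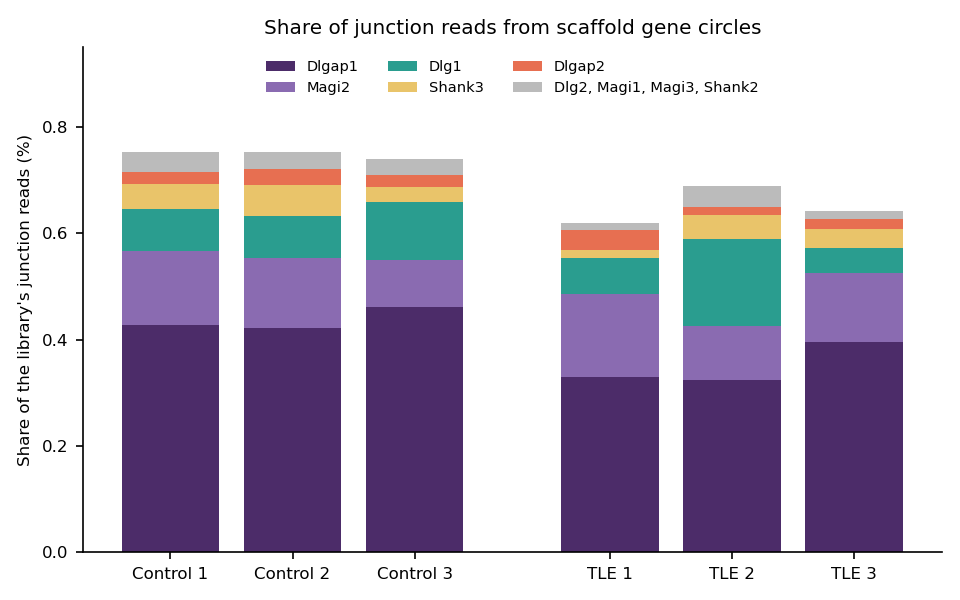
Share of each library's junction reads, in percent, that came from circles of the scaffold genes, stacked by gene; the axis starts at 0. The Control bars reach 0.739% to 0.753% and the TLE bars 0.618% to 0.688%, and the Dlgap1 segment at the base is 0.421% to 0.462% in Control and 0.324% to 0.395% in TLE.

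The scaffold circles resembled the rest of the table in most features of structure, which are given as descriptions with no test. Both ends lay on exon boundaries of 1 transcript in 63 of 72 (87.5%), beside 82.5% of all circRNAs. The median was 4 exons in both, and the median exon length 628 nucleotides beside 609. In 58 of the 63 the exons were coding throughout, and 5 held some untranslated sequence. A shared end with another circle of the gene was found in 58 of 72 (80.6%), beside 79.7% of circRNAs from genes with at least 2 circles. The scaffold circles differed in where they began: exon 2 was the first exon in 5 of 63 (7.94%), beside 29.7% of all circRNAs. They also reached further across the genome, with a median of 27195.5 bases between the ends beside 14736 bases, and 10 (13.9%) spanned more than 100000 bases beside 4.50%. Their host genes ran from 60639 bases for Shank3 to 1972576 bases for Dlg2, among genes with circles, and the lengths of other host genes were not compared. Magi2, Dlgap1 and Dlg1 gave 19, 18 and 12 of the 72 circles, so these shares mostly describe 3 genes.

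Other genes of the postsynaptic density were described in the same way. Of 6 further paralogues, Dlg5, Dlgap3 and Dlgap4 had circles, 7 in all, and Dlg4, Dlgap5 and Shank1 had none. Dlg4 encodes PSD-95, the most studied scaffold of the family, and it had no circRNA in the table. Dlg5 summed to 59.8, 74.4 and 86.1 SRPBM in Control and 62.0, 158 and 113 SRPBM in TLE, with a log2 fold change of 0.43 (limma, unadjusted p = 0.348). The values were -0.26 for Dlgap3 (limma, unadjusted p = 0.658) and 1.12 for Dlgap4 (limma, unadjusted p = 0.1), the latter with 16 reads.

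Of 27 other scaffold and adaptor genes, 16 had circles and 12 were tested. By limma 0 were called in either direction, 2 of the 12 had an unadjusted p under 0.05 beside 6.17% of all host genes tested, and 8 log2 fold changes lay above 0 and 4 below. Those 2, named after their values were seen, were Homer1, which links Shank to metabotropic glutamate receptors, and Lrrc7, which encodes densin-180. Homer1 summed to 573, 511 and 612 SRPBM in Control and 1043, 684 and 857 SRPBM in TLE, with no overlap and a log2 fold change of 0.58 (limma, unadjusted p = 0.0271, adjusted p = 0.766). Lrrc7 measured 299, 465 and 233 SRPBM in Control and 444, 456 and 701 SRPBM in TLE, with overlap and a log2 fold change of 0.68 (limma, unadjusted p = 0.0345, adjusted p = 0.766). Of 16 membrane partners, the receptor subunits and adhesion molecules, 11 had circles, 7 were tested, 0 were called or had an unadjusted p under 0.05 by limma, and all 7 log2 fold changes lay above 0 (median 0.27, beside 0.20 for all host genes). The share of all host genes above 0 was not counted, and with rescaled totals the median of all host genes was 0.01. Of 4 kinase genes of the CaMKII family 2 had circles and 1 was tested, with a log2 fold change of 1.13 that was not called by limma.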

How the data were processed

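Total RNA of mouse cortex was depleted of ribosomal RNA and sequenced. The authors identified circRNAs with CIRI after BWA-MEM alignment and deposited 1 normalized signal per circRNA and library, in SRPBM. The labels name build mm10 and DESeq2, without versions. Each sample's file held the same table, which was read once.

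The members and gene lists were chosen with earlier results of these data known. Host identifiers were matched to symbols, and 3466 of 3469 matched. SRPBM values were whole multiples (within 0.1) of 1 step per library, taken as 1 junction read, used for depth, shares and Wilson intervals, which cover counting error only. Levels were compared with limma 3.58.1 in R 4.3.3 after adding a pseudocount of 17.1, the smallest positive SRPBM, and taking log2 (lmFit, then eBayes with a trend; two-sided), over features above 0 in at least 3 libraries, with Benjamini-Hochberg adjustment. Fold changes on this scale understate changes of rare circles. P-values rest on the spread between libraries of single mice, which also holds counting error. Ends were placed on GENCODE M21 exons (GRCm38); exons of paralogues were aligned over at least 40 bases. The text names the 10 genes with their dominant circles (highest mean), the 3 highest and 3 lowest log2 fold changes, and tested circles whose groups do not overlap. The script was tested on simulated data, with large changes placed in well read circles and counting error only, which says nothing of rare circles.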

Additional observations from a re-analysis of the deposited data

How the results depend on the processing

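No scaffold circle and no scaffold gene was called with a pseudocount of 0.5 times the smallest value or of 1 SRPBM, without the filter, with a filter on the mean, with libraries rescaled to the same total, with eBayes without trend or at a log2 fold change of 1. With the replicate number as a block, 0 circles and 0 genes were called as well. Deviations of same-numbered libraries had very small correlations (0.0192, 0.0139 and 0.0103), though these were higher than those of the other pairs (-0.0242 to 0.00922). Leaving out 1 library gave 0 to 1 called circles, the 1 being Magi2 exons 2-5 without Control replicate 1 and Dlg1 exons 12-14 without TLE replicate 2, and 0 to 1 called genes, the 1 being Magi1 without Control replicate 2. Groups without overlap numbered 4 circles (1 above, 3 below) in place of 2 with rescaled totals, where both leading Dlgap1 circles were added, beside 10% of all circRNAs tested. The TLE mean minus the Control mean of circles detected was 3.67, 0.263 after thinning, 2.67 at 3 or more reads, and 0.667 to 8.67 with 1 library left out. The difference in dominant share in Dlg1 was -19.2 percentage points, and -32.6 to 3.74 with 1 library left out, positive without TLE replicate 3. In Magi2 it was 2.20, and -0.961 to 5.57, negative without TLE replicate 1. In Shank3 it was -11.0, and 8.85 when circles listed in fewer than 3 libraries were left out. Of 278 values of 20 log2 fold changes under the alternatives, 262 kept direction and call, 3 gained a call and 13 turned. With rescaled totals the sums of Dlg1 and Dlgap2 turned to -0.11 and -0.11. With 1 library left out, Dlgap1 ranged from -0.32 to 0.075 as a sum and from -0.31 to 0.084 for its dominant circle, Dlg1 from -0.39 to 0.36 and from -1.93 to 0.44, Shank3 from -0.56 to 0.21 and from -0.88 to 0.15, and the sums of Shank2 from -0.52 to 0.22 and of Dlgap2 from -0.12 to 0.30. The cause was not tested. The edgeR and DESeq2 alternatives were not run: the deposited unit is a signal, and the junction reads were inferred from its steps and used only for depth, shares, thinning and intervals. With 3 libraries a group and most circles at 10 reads or fewer, differences smaller than the intervals given were not detectable at this depth.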
